A study of Mus musculus with 20 samples.

Results

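The genes described here are 4 matrix metalloproteases (*Mmp2*, *Mmp12*, *Mmp14*, *Mmp19*), 3 tissue inhibitors of metalloproteases (*Timp1*, *Timp2*, *Timp3*) and 3 matrix glycoproteins (*Fn1*, *Thbs1*, *Postn*). They were taken by symbol from the count table of the spinal cord cells, and all 10 were found among its 16003 genes. The cells came from female C57BL/6J mice, 8 to 10 weeks old, fed vehicle chow or chow with PLX5622 (its dose is stated differently in the labels and the study's methods and is not given here), an inhibitor of the *Csf1* receptor that removes microglia, from 2 weeks before surgery to the end point. Surgery was a contusion of the spinal cord (SCI) at T9, with the cord taken 7 or 28 days post-injury (dpi), or a laminectomy alone (sham). The 2 sham libraries carry both times in their labels, so each is the 1 reference of its diet at 7 and at 28 dpi. A piece of 1 cm of cord with its meninges was taken from mice that were not perfused, dissociated and cleared of myelin and dead cells, and the cords of several mice were pooled into 1 library per condition. With 1 library in each of the 6 conditions there is no test between conditions, and no gene is called changed.

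Proteases of this family cut collagens, elastin, fibronectin and other proteins outside the cell, and *Mmp14* is bound to the cell surface, where it also activates the product of *Mmp2*. The inhibitors bind the proteases in their active sites and so limit matrix breakdown, and *Timp2* is in addition part of the complex in which *Mmp2* is activated. Fibronectin, thrombospondin 1 and periostin are laid down in wounds, where cells attach to them through integrins, and in the injured cord they belong to the scar that forms where macrophages and fibroblasts gather.

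On the GRCm38.p6 assembly the proteases lie at chr8:92827290-92853421 (*Mmp2*), chr9:7344397-7360461 (*Mmp12*), chr14:54431598-54442456 (*Mmp14*) and chr10:128790910-128800827 (*Mmp19*). The inhibitors lie at chrX:20870166-20874737 (*Timp1*), chr11:118301061-118355411 (*Timp2*) and chr10:86300412-86349505 (*Timp3*), and the glycoproteins at chr1:71585473-71653280 (*Fn1*), chr2:118111876-118127133 (*Thbs1*) and chr3:54359267-54391041 (*Postn*). Promoter windows of RefSeq on the same assembly were found for 6 of the 10 genes, in 8 windows. Shown here are the 250 bases before the start for *Mmp12* and *Postn*, which were both higher in macrophages at 28 dpi than at 7 dpi, and for *Timp1*, which those macrophages held almost none of. Where a gene had more than 1 window, the one with the most GENCODE transcript starts within 50 bases was taken. Each is read 5′ to 3′ on the plus strand, and capitals mark a match to a motif, namely AP-1 in *Mmp12* (chr9:7347124-7347373), C/EBP and then a TATA box in *Postn* (chr3:54360857-54361106) and a GC box in *Timp1* (chrX:20869916-20870165).
Mmp12: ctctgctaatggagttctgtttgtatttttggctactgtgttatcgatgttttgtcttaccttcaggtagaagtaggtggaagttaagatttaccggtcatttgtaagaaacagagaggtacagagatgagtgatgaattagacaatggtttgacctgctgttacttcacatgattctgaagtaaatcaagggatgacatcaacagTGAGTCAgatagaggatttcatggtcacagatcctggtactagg
Postn: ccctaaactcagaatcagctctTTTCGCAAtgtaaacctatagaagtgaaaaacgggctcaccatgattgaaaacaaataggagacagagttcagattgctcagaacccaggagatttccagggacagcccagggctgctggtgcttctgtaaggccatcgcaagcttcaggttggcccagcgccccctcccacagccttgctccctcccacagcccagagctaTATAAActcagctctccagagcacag
Timp1: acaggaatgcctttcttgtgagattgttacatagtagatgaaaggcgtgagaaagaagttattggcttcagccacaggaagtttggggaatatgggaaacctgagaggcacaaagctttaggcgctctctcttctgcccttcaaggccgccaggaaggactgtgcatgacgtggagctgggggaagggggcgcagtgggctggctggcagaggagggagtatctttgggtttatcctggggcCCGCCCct
The letters searched on both strands were TGANTCA for AP-1, GAGGAAGT for ETS factors such as PU.1, TTGCNNAA for C/EBP, TATAAA for a TATA box and GGGCGG for a GC box. Of all 32536 windows of this length, 6.73% held the AP-1 letters, 2.45% the ETS letters, 9.57% the C/EBP letters, 12.3% the TATA letters and 33% the GC box. The AP-1 match of *Mmp12* lay 44 to 38 bases before the start, and the *Mmp12* window at the gene's annotated start, not printed, held an ETS match and a C/EBP match. The printed windows of *Mmp12* and *Postn* lie inside the RefSeq span of the gene, before a later start. In *Postn* the C/EBP match lay 228 to 221 bases and the TATA box 26 to 21 bases before the start. Windows of *Mmp14*, *Timp1*, *Timp2* and *Timp3* held a GC box and no match to the other motifs. These matches are a description of letters and no sites of binding.

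The count table held 21016 cells in 14 clusters numbered by the authors. The 3 vehicle libraries had 1795, 7439 and 9846 cells in sham, 7 dpi and 28 dpi cords, and the 3 PLX5622 libraries had 492, 504 and 940. Unique molecular identifiers (UMIs, each standing for 1 captured transcript) totalled 2606149 to 35694246 a library, and the median per cell from 2268 to 5127. The numbers were named here from markers, and all 6 markers of endothelial cells and of astrocytes, and 5 of 6 of microglia and of monocyte-derived macrophages (MDMs), were highest in the cluster of that name. The same held for 4 of 6 markers of monocytes and 4 of 6 of oligodendrocyte lineage cells. The cluster called fibroblast-like had the highest level of 5 of 6 fibroblast markers but also of 5 of 6 pericyte markers. The leptomeningeal-like cluster had the highest level of 3 of 6 of its own markers, and the other 3 were highest in the fibroblast-like cluster. The clusters come from these same cells and genes, and *Mmp12* was among the 10 genes of highest fold in the MDM cluster, so its height there over other clusters is how that cluster was defined. Vehicle cords gave 674, 2154 and 3974 microglia, and cords of PLX5622-fed mice 29, 61 and 126. MDMs numbered 185, 3023 and 3313 with vehicle, against 9, 100 and 161. The study states that few MDMs came from uninjured cords and that their largest subset was high in *Siglech*, a microglia marker here. Ratios over sham in MDMs can thus also reflect which cells the cluster held, which was not tested. Of all barcode sequences, 44 were found in more than 1 library.

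For each gene, a level is its UMIs in the cells of a cluster in a library per 1000000 UMIs of those cells, written CPM. Ranges in parentheses are 95% intervals for counting error only, and cover neither the spread between cells nor that between mice. Library values are given in the order sham, 7 dpi and 28 dpi. Within a vehicle library only clusters of 20 or more cells were ranked, which left out the 9 leptomeningeal-like cells at 7 dpi. Ratios over sham at both times share the sham library. Over all 6 libraries *Timp2* was found in 73% of the cells with 109085 UMIs, *Fn1* in 29.4% with 30769, *Timp3* in 9.01% with 6278 and *Mmp12* in 5.95% with 6220. The remaining genes had 4799 UMIs (*Thbs1*), 3060 (*Mmp14*), 1739 (*Postn*), 941 (*Mmp2*), 478 (*Timp1*) and 383 (*Mmp19*), which sets how finely each can be followed.

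**Figure D1:**
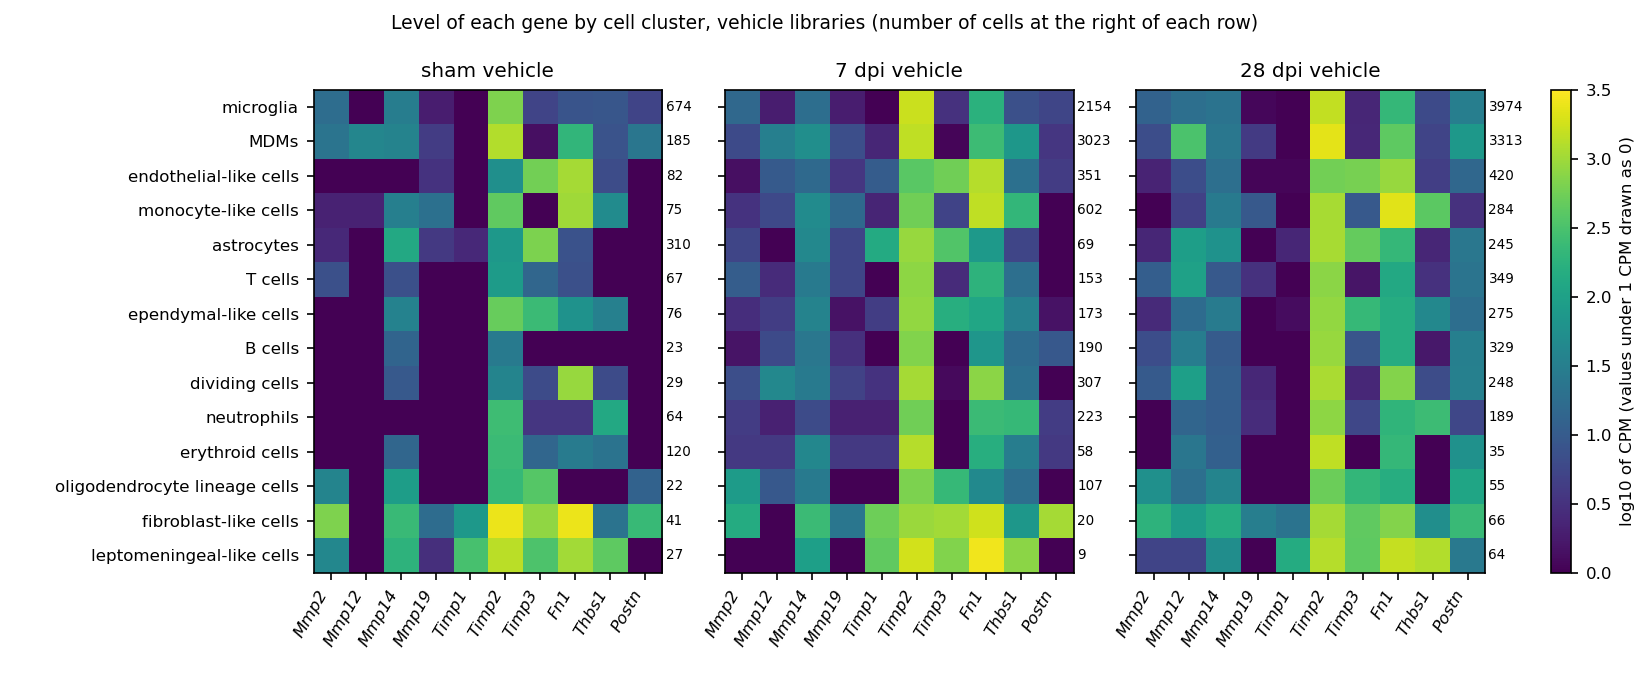
Level of each gene (log10 of CPM, colour) in the 14 clusters (vertical axis, with the number of cells at the right) of the 3 vehicle libraries. Read down a column, *Timp3* is bright in endothelial-like cells, astrocytes, ependymal-like, oligodendrocyte lineage, fibroblast-like and leptomeningeal-like cells and dark in blood-derived cells, while *Timp2* of T and B cells is darker in the sham cord than at 7 and 28 dpi.

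*Mmp12*, the macrophage elastase, was the protease that differed most between times in MDMs. MDMs of vehicle cords had 40.2 CPM (30.4 to 52.1), 32.4 (29.9 to 35) and 325 (316 to 335), the last of these far above the others. For 28 over 7 dpi the log2 ratio was 3.33 (3.21 to 3.45), a 10-fold difference from 4506 and 643 UMIs. Of all *Mmp12* UMIs of a vehicle library, MDMs held 98.3% in sham, 80.3% at 7 dpi and 91.4% at 28 dpi, while they were 10.3%, 40.6% and 33.6% of the cells. Within MDMs the transcript was found in a minority of cells. After each cell was thinned to 1000 UMIs, the share of MDMs with an *Mmp12* UMI was 1.14% (0.139 to 4.07), 1.99% (1.53 to 2.56) and 13% (11.9 to 14.2). Without thinning these shares were 3.78%, 5.69% and 23.8%, at median depths of 5769, 5777 and 3875 UMIs. In B cells of the 28 dpi vehicle cord, which should lack the gene, the thinned share was 2.5% (0.685 to 6.28), at a median depth of 932 UMIs. At 28 dpi the tenth of MDMs with most *Mmp12*, 326 of 3258 cells, held 90.1% of the thinned UMIs. As 87% of these MDMs held none, that share follows in large part from how few cells had a UMI.

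The sham level rested on 1 cell, which held 48 of the 57 UMIs. Without the cell with most UMIs in each library, sham MDMs were at 6.4 CPM and the log2 ratio over sham went from -0.31 (-0.71 to 0.10) to 2.26 at 7 dpi and from 3.02 (2.64 to 3.42) to 5.63 at 28 dpi. The ratio of 28 over 7 dpi was 3.36 without these cells. Under PLX5622 the MDM level was 0 UMIs in 9 sham cells, 75 CPM (62.7 to 89) at 7 dpi and 218 (194 to 245) at 28 dpi. Here too 1 cell held 98 of the 131 UMIs at 7 dpi, so that the log2 ratio to vehicle of 1.21 (0.93 to 1.49) became -0.67 without it. Of 99 thinned cells there 0 had a UMI, which allows up to 3.66%. At 28 dpi the log2 ratio to vehicle was -0.57 (-0.75 to -0.40), with 10% (5.71 to 16) of thinned MDMs holding a UMI.

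In microglia *Mmp12* was at 0 in sham, 1.93 CPM at 7 dpi and 19 CPM (16.1 to 22.3) at 28 dpi, at least 13.3-fold above the 3 counts that a sham value of 0 allows. The same library had 99.3 CPM (76.2 to 127) in T cells and 30.6 (18.1 to 48.4) in B cells, and 1.47% of thinned microglia held a UMI against 3.32% of T cells. The microglial value was at or below those of lymphocytes, so it is not read as a level of microglia, and the part of free RNA in it was not tested. Dividing cells had 43.2 CPM at 7 dpi, the highest level among the ranked clusters of that library, from 105 UMIs of which 45 were in 1 cell (24.8 CPM without it), and 94.6 CPM at 28 dpi.

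*Mmp14*, the membrane-bound protease, went the opposite way in MDMs over the same interval. MDMs of vehicle cords had 36.7, 54.1 and 24.8 CPM, and those of PLX5622-fed mice 15.4, 84.2 and 36.5, the first of these from 1 UMI. In vehicle MDMs the log2 ratio of 28 over 7 dpi was -1.13 (-1.30 to -0.95). In microglia the vehicle levels were 30.5, 18.2 and 21.2 CPM, with a log2 ratio of 7 dpi over sham of -0.75 (-1.19 to -0.29) against 0.56 (0.16 to 0.99) in MDMs. T cells had 7.2, 27 and 9.61 CPM of *Mmp14* in these libraries and B cells 13.6, 24.2 and 10.2, from 1 to 16 UMIs, so that microglia at 7 dpi lay at or below lymphocytes. The part of free RNA in the microglial level was not tested. With TMM factors the microglial log2 ratio was -0.20. Among ranked clusters, fibroblast-like cells had the highest *Mmp14* in each vehicle library, at 234, 240 and 149 CPM. In sham they did not stand apart from leptomeningeal-like cells at 186. Of their 54 sham UMIs 23 were in 1 cell. Without the cell with most UMIs the sham levels were 144 CPM in fibroblast-like and 189 in leptomeningeal-like cells. Fibroblast-like cells with fewer than 3 myeloid UMIs had 43.6 CPM in sham, from 2 UMIs. Astrocytes had 131, 43.5 and 60.4 CPM under vehicle and 138, 95.2 and 178 under PLX5622, a log2 ratio to vehicle of 1.56 (0.72 to 2.41) at 28 dpi. The summed level of 12 myeloid genes in these astrocytes was 2498, 32729 and 31294 CPM under vehicle and 2698 at 28 dpi under PLX5622. Astrocytes with fewer than 3 UMIs of those genes had, at 28 dpi, 16.2 CPM of *Mmp14* under vehicle, from 1 UMI, and 130 under PLX5622, from 11. Monocyte-like cells had 32.9, 49.1 and 26.7 CPM under vehicle, and 114 CPM at 7 dpi under PLX5622.

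*Mmp2*, gelatinase A, was a transcript of fibroblast-like cells in the sham cord. These cells had 666, 144 and 181 CPM under vehicle, from 154, 6 and 17 UMIs, and 206, 599 and 189 under PLX5622, from 22, 38 and 4 UMIs. The 599 CPM came from 10 cells, 1 of which held 19 UMIs, and without it the level was 391. Among those with fewer than 3 myeloid UMIs the sham level was 218 CPM (105 to 401) and the 28 dpi level 229 (74.3 to 534). The higher sham level was not seen in them, but only 20 of 41 sham cells, with 10 of the 154 UMIs, were kept. This cut is a fixed count that leaves out deep cells more often, so the lower level is not read as a removal of myeloid RNA. In sham all fibroblast-like cells together held 62.9% (56.5 to 68.9) of all *Mmp2* UMIs while being 2.28% of the cells. The next cluster there, leptomeningeal-like cells at 41.4 CPM, did not stand apart from oligodendrocyte lineage cells at 38.5. Oligodendrocyte lineage cells, which include progenitors with *Pdgfra*, had 82.4 CPM at 7 dpi and 57.1 at 28 dpi, and 190, 88.5 and 156 under PLX5622, the first of these from 4 cells. MDMs had 21.9, 6.09 and 6.78 CPM under vehicle, log2 ratios over sham of -1.84 (-2.42 to -1.23) and -1.69 (-2.29 to -1.05). Microglia stayed closer together, at 18.1, 15.1 and 12.5 CPM.

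*Mmp19* was sparse, with 28, 210 and 80 UMIs in the vehicle libraries. Monocyte-like cells had 19.8, 15.6 and 9.41 CPM and stood apart from MDMs, at 6.89 CPM, in the 7 dpi library. In MDMs the levels of 4.23, 6.89 and 3.97 CPM differed by less than 2-fold. A value of 288 CPM in monocyte-like cells of the sham PLX5622 cord came from 23 UMIs, 22 of them in 1 cell.

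**Figure D2:**
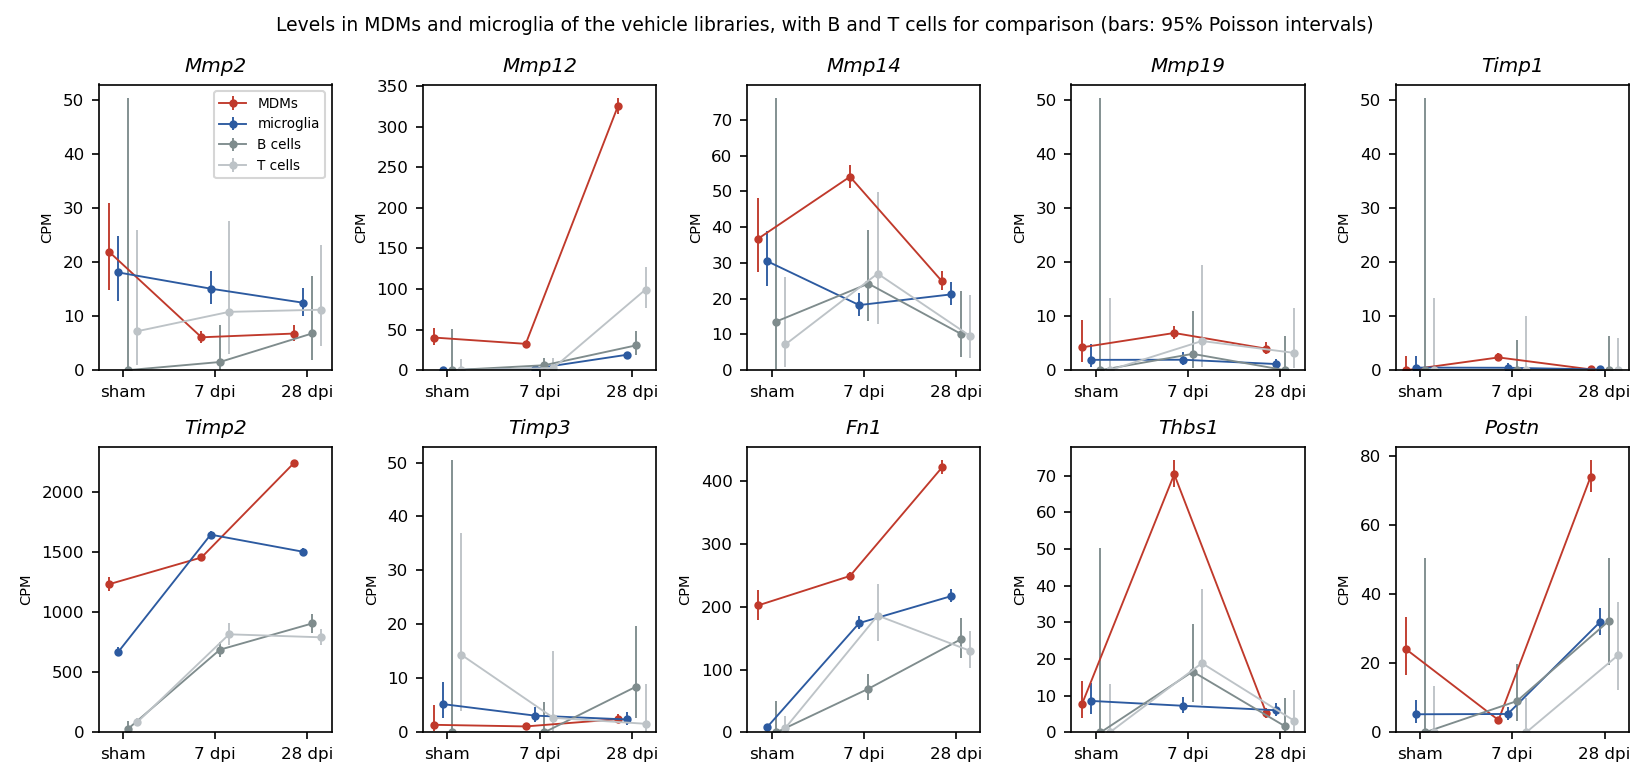
Level (CPM, linear axis from 0) of the 10 genes in MDMs (red) and microglia (blue), with B cells and T cells in greys, in the 3 vehicle libraries. Points are library sums with 95% Poisson bars and lines only join the points of a cluster. *Mmp12* and *Postn* of MDMs are highest at 28 dpi and *Thbs1* at 7 dpi, and at 28 dpi the microglial points of *Mmp12* and *Postn* lie at or below those of B cells.

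Of the inhibitors, *Timp2* had the highest level of any myeloid cluster in MDMs at 28 dpi. MDMs of vehicle cords had 1233 CPM (1175 to 1292), 1455 (1438 to 1472) and 2238 (2213 to 2263), and those of PLX5622-fed mice 816, 1271 and 2213. The ratio of 28 dpi over sham in vehicle MDMs was 0.86 (0.79 to 0.93) on the log2 scale, and past 2-fold with TMM factors, at 1.14. The diets were close at 28 dpi, with a log2 ratio of -0.02 (-0.07 to 0.04). Microglia had 672 CPM in sham, 1645 at 7 dpi and 1503 at 28 dpi under vehicle, log2 ratios over sham of 1.29 (1.21 to 1.37) and 1.16 (1.08 to 1.24). The surviving microglia of PLX5622-fed mice followed the same order, with 741, 1479 and 1275 CPM and a log2 ratio of 7 dpi over sham of 1.00 (0.69 to 1.31). The share of thinned microglia with a *Timp2* UMI was 47.6%, 73.3% and 71.7% under vehicle. B cells, not known for this gene, had 0% (up to 14.8), 24.7% and 41.9% at median depths of 2850, 2209 and 932 UMIs, against 3178, 2902 and 1686 in microglia. Together MDMs and microglia held most *Timp2* UMIs of the injured vehicle cords, with 61.7% in MDMs and 23.7% in microglia at 7 dpi.

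In lymphocytes, astrocytes and endothelial-like cells *Timp2* and myeloid RNA were both higher in the injured vehicle cords than in sham. B cells had 27.3, 688 and 906 CPM in the vehicle libraries, and T cells 82.8 (52.4 without the top cell), 816 and 791. The summed level of 12 myeloid genes in the same cells was 4313, 30613 and 29974 CPM in B cells and 5198, 28777 and 26398 in T cells, against 57239 to 69239 in microglia, and none of the 12 was at 0 in these clusters. Restricted to cells with fewer than 3 UMIs of these genes, the 28 dpi vehicle levels were 129 CPM in B cells in place of 906, 118 in T cells in place of 791, 145 in astrocytes in place of 1094 and 83.8 in endothelial-like cells in place of 563. Ependymal-like cells kept 631 of 863 CPM. Fibroblast-like cells had 2500, 936 and 1084 CPM of *Timp2*, the first the highest level of the sham library and the second 387 without 1 cell, while their myeloid RNA was 1436, 3769 and 11797 CPM. With the restriction their levels were 742 (514 to 1037) in sham and 1144 (741 to 1689) at 28 dpi. Leptomeningeal-like cells had 1372 CPM in sham and 1271 at 28 dpi, with myeloid RNA at 1275 and 11908. The 28 dpi PLX5622 library, with fewer myeloid cells, had 2526 to 4042 CPM of the myeloid genes in B cells, T cells, astrocytes and endothelial-like cells. The log2 ratio of *Timp2* to vehicle there was -2.47 (-3.05 to -1.93) in astrocytes, -1.86 (-2.39 to -1.37) in endothelial-like cells, -3.19 (-3.74 to -2.69) in T cells and -0.32 (-0.53 to -0.12) in ependymal-like cells. Of the 36 UMIs in endothelial-like cells under PLX5622, 26 were in 1 cell, and without the cell with most UMIs in each library the levels were 46.7 CPM against 542. In cells with fewer than 3 myeloid UMIs the 28 dpi levels under PLX5622 and vehicle were 154 and 145 CPM in astrocytes, 41.9 and 83.8 in endothelial-like cells, 60.2 and 118 in T cells and 43.3 and 129 in B cells. These rest on 3 to 13 *Timp2* UMIs each, and within each of these clusters the intervals of the diets overlapped.

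**Figure D3:**
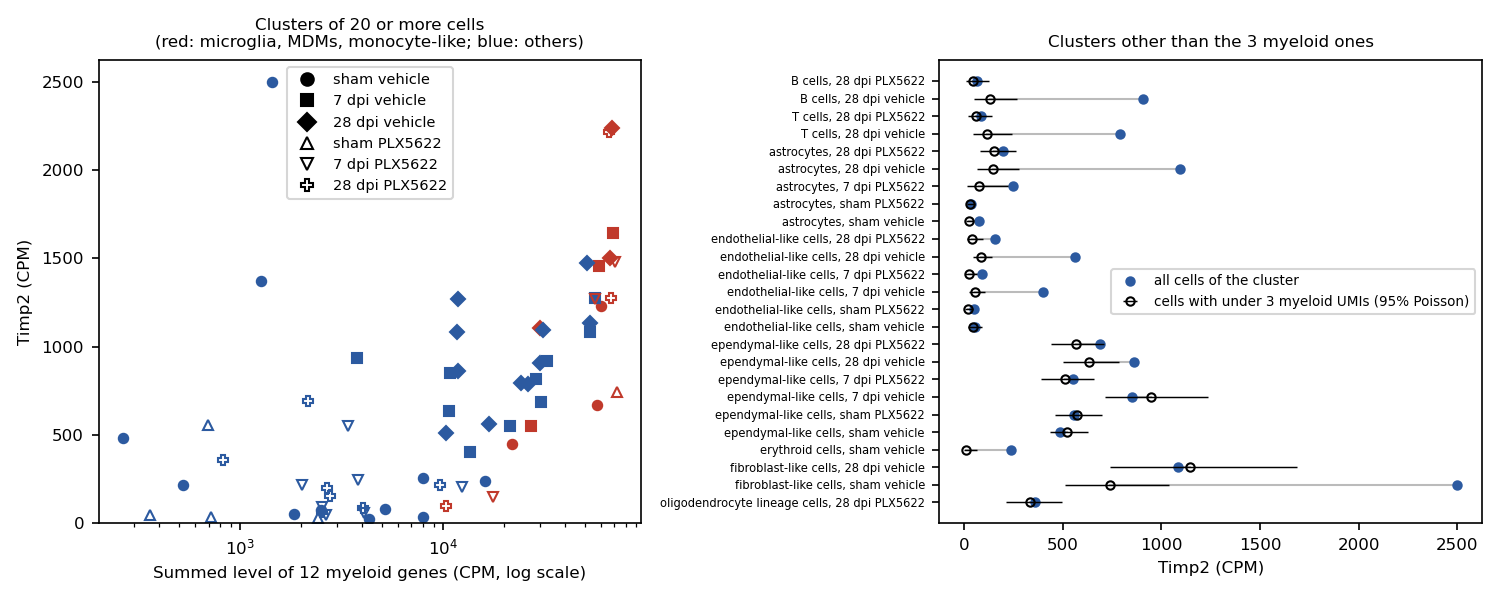
Left, *Timp2* (CPM) against the summed level of 12 myeloid genes (CPM, log axis) in clusters of 20 or more cells, red for microglia, MDMs and monocyte-like cells and blue for the others, with a symbol per library. Right, *Timp2* in all cells of a cluster (blue) and in those with fewer than 3 myeloid UMIs (open, 95% Poisson bars), where B cells of the 28 dpi vehicle cord go from 906 to 129 CPM and ependymal-like cells from 863 to 631.

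*Timp3*, which binds to the matrix itself, was a transcript of vascular, glial and stromal cells. Endothelial-like cells had 566, 550 and 603 CPM under vehicle and 819, 917 and 796 under PLX5622, log2 ratios to vehicle of 0.53 (0.28 to 0.79), 0.74 (0.57 to 0.90) and 0.40 (0.15 to 0.64). For 7 dpi over sham under vehicle the log2 ratio was -0.04 (-0.28 to 0.20). In the endothelial-like cells with fewer than 3 myeloid UMIs the levels were 557, 748 and 619 CPM under vehicle and 402, 956 and 771 under PLX5622, while myeloid RNA in all such cells was 1850 CPM in sham and 13664 at 7 dpi under vehicle. With this restriction the direction of the diet difference turned in sham, and the 7 dpi vehicle level (625 to 887) was above sham (457 to 673), with intervals that overlapped. Astrocytes had 643, 354 and 466 CPM of *Timp3* under vehicle and 515, 657 and 798 under PLX5622. Astrocytes with fewer than 3 myeloid UMIs had 601 CPM in sham and 889 (669 to 1157) at 28 dpi under vehicle, against 547 and 697 (531 to 900) under PLX5622, so that the order of the diets at 28 dpi and that of sham and 28 dpi under vehicle both turned. At 28 dpi astrocytes, fibroblast-like cells (436 CPM) and leptomeningeal-like cells (432) did not stand apart from each other. MDMs had 1.41, 1.11 and 2.45 CPM and microglia 5.25, 3.11 and 2.4, and B cells had 0, 0 and 8.5, so macrophages did not stand above B cells at 28 dpi. Endothelial-like cells held 15.6% of the *Timp3* UMIs of the sham vehicle library and 67.9% of those at 7 dpi, while astrocytes were 17.3% and 0.928% of the cells. At 7 dpi under PLX5622, 388 UMIs in 28 oligodendrocyte lineage cells gave 2641 CPM, with 165 UMIs in 1 cell and 1813 CPM without it. In the same library 258 UMIs in 12 leptomeningeal-like cells gave 2710 CPM, with 188 UMIs in 1 cell.

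*Timp1*, an inhibitor known to be induced by inflammation in many cells, was found in the sham cord mostly in leptomeningeal-like cells, with 83.5% of its 121 UMIs, and fibroblast-like cells, with 14%. Leptomeningeal-like cells had 299, 436 and 141 CPM under vehicle and 223, 294 and 146 under PLX5622, with 9 and 64 cells at 7 and 28 dpi under vehicle. Fibroblast-like cells had 73.5, 528 and 21.3 CPM under vehicle, with 18 of the 22 UMIs at 7 dpi in 1 cell. Astrocytes had 2.57, 136 and 2.41 CPM under vehicle and 0, 305 and 13.2 under PLX5622. Again 1 astrocyte held 24 of the 25 UMIs at 7 dpi under vehicle and 1 held 30 of 32 under PLX5622, which left 5.79 and 24.5 CPM. MDMs had 0 UMIs in sham, 47 at 7 dpi (2.36 CPM) and 2 at 28 dpi, and microglia 1, 3 and 1.

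*Fn1*, fibronectin, was highest in stromal, endothelial-like and monocyte-like cells and differed more between times in microglia than in MDMs. Monocyte-like cells had 992, 1452 and 2185 CPM under vehicle, log2 ratios over sham of 0.55 (0.41 to 0.69) and 1.14 (0.98 to 1.30), and were the highest cluster at 28 dpi. The share of thinned monocyte-like cells with a UMI did not follow this order, at 31.8%, 33.7% and 28.2%. At 28 dpi the tenth of these cells with most *Fn1* held 73.8% of the thinned UMIs. Under PLX5622 monocyte-like cells had 1818, 426 and 513 CPM. Against vehicle this gave log2 ratios of -1.77 (-2.05 to -1.50) from 29 cells at 7 dpi and -2.09 (-2.33 to -1.85) from 63 cells at 28 dpi. By share of thinned cells the diets were close at 7 dpi, with 32.1% (15.9 to 52.4) under PLX5622 and 33.7% (29.9 to 37.7) under vehicle. At 28 dpi the shares were 16.4% (8.15 to 28.1) and 28.2% (22.6 to 34.2), with intervals that overlapped. Median depths were 9405 UMIs under PLX5622 and 2990 under vehicle at 7 dpi. The monocyte-like cells of the diets also differed in the 12 myeloid genes, at 27064 CPM under vehicle and 17714 under PLX5622 at 7 dpi and at 30264 and 10335 at 28 dpi, and in *Timp2*, at 1104 and 96.3 CPM at 28 dpi. The part of this in the *Fn1* difference was not tested. In the sham PLX5622 library 78 of the 145 UMIs were in 1 cell. Endothelial-like cells had 1071, 1307 and 919 CPM under vehicle and 688, 1028 and 740 under PLX5622, all below vehicle. Fibroblast-like cells had 2504, 1753 (1114 without 1 cell) and 701 CPM under vehicle, a log2 ratio of -1.84 (-2.23 to -1.47) for 28 dpi over sham. Among those with fewer than 3 myeloid UMIs the levels were 764 CPM (532 to 1062) in sham and 549 (284 to 959) at 28 dpi. Leptomeningeal-like cells had 1047, 2648 and 1558 CPM.

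In MDMs *Fn1* was at 202 CPM (179 to 226), 249 (242 to 256) and 422 (411 to 433) under vehicle and 77, 169 and 228 under PLX5622. For 28 dpi over sham the log2 ratio was 1.06 (0.89 to 1.24), and PLX5622 over vehicle gave -0.56 (-0.73 to -0.39) in the 7 dpi libraries and -0.88 (-1.06 to -0.72) in those of 28 dpi, the latter -1.10 without the top cell. At equal depth per cell the difference at 7 dpi was no longer there, at 0.03. Thinned MDMs with an *Fn1* UMI made up 6.86%, 15% and 24.7% under vehicle and, at 28 dpi, 17.3% under PLX5622. In microglia the vehicle levels were 8.11 CPM (4.72 to 13), 174 (165 to 185) and 217 (207 to 228), log2 ratios over sham of 4.43 (3.74 to 5.21) and 4.74 (4.06 to 5.53). T cells had 7.2, 186 and 130 CPM in the same libraries and B cells 0, 69.5 and 148, so much of the range in microglia was also seen in lymphocytes. By share of thinned cells, microglia had 1.09%, 8.92% and 13.1%, T cells 1.64%, 6.61% and 5.39%, and B cells 0% (up to 14.8), 4.79% and 6.25%, with median depths of 1686 in microglia, 1233 in T cells and 932 in B cells at 28 dpi. At 28 dpi the microglial share (12 to 14.4) lay above those of T cells (2.9 to 9.05) and B cells (3.04 to 11.2), while at 7 dpi the intervals overlapped. The part of free RNA in the microglial level was not tested. Under PLX5622 microglia had 7.06, 128 and 51.2 CPM, a log2 ratio to vehicle of -2.09 (-2.76 to -1.48) at 28 dpi from 22 UMIs, 9 of them in 1 cell (30.9 CPM without it), and T cells there were at 2.55 CPM.

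*Thbs1*, thrombospondin 1, which activates TGF-beta and binds *Cd36* and *Cd47*, was a 7 dpi transcript in MDMs. Vehicle MDMs had 7.76 CPM (3.87 to 13.9), 70.4 (66.8 to 74.2) and 5.19 (4.06 to 6.54), with log2 ratios of 3.18 (2.34 to 4.19) for 7 dpi over sham and -3.76 (-4.12 to -3.42) for 28 over 7 dpi. At equal depth per cell the first was 1.82. Thinned MDMs with a UMI made up 1.71%, 5.12% and 0.307%, against 0% (up to 14.8), 1.37% and 0% (up to 2.28) of B cells, at the depths given above. MDMs of PLX5622-fed mice had 61.6, 386 (357 to 416) and 10.9 CPM (5.95 to 18.3), the first of these from 4 UMIs. The log2 ratio to vehicle at 7 dpi was 2.45 (2.32 to 2.59), 2.29 without the top cell and 3.25 at equal depth per cell, and 17.2% (10.3 to 26.1) of thinned MDMs held a UMI there. MDMs were far deeper under PLX5622 at 7 dpi, with a median of 15945 UMIs against 5777.

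Monocyte-like cells had 48.3, 205 and 411 CPM of *Thbs1* under vehicle and 87.7, 434 and 19.3 under PLX5622, so that PLX5622 was above vehicle at 7 dpi, with a log2 ratio of 1.08 (0.77 to 1.38), and below it at 28 dpi, with -4.42 (-5.87 to -3.27) from 6 UMIs. The difference in myeloid genes given above for these cells goes with the latter, and its part was not tested. Between 7 and 28 dpi under vehicle, the level was thus higher in monocyte-like cells, with a log2 ratio of 1.00 (0.78 to 1.23), and lower in MDMs. Cells with a UMI did not become more common, with 156 of 602 monocyte-like cells at 7 dpi and 49 of 284 at 28 dpi. These counts are without thinning, at median depths of 2990 and 1830 UMIs, and 1 cell held 27 of the 262 UMIs at 28 dpi. Neutrophils had 129, 220 and 254 CPM under vehicle, from 64, 223 and 189 cells. Under PLX5622 they had 349, 264 and 231 CPM, from only 11, 12 and 32 cells. Leptomeningeal-like cells had 423, 779 and 1240 CPM under vehicle and 993, 1723 and 3619 under PLX5622, log2 ratios to vehicle of 1.23 (0.95 to 1.52), 1.15 (0.53 to 1.81) and 1.55 (1.24 to 1.85). These came from 8 to 64 cells a library, and in the sham PLX5622 library 1 of 14 cells held 219 of 348 UMIs. Without the cell with most UMIs in each library the levels were 403, 595 and 1066 CPM under vehicle and 523, 1232 and 2649 under PLX5622, so the sham difference rested mostly on that cell. Microglia were at 8.59, 7.26 and 6.05 CPM.

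*Postn*, periostin, a matricellular protein of wounds and scars, had a low point in MDMs at 7 dpi and its highest level at 28 dpi. Vehicle MDMs had 24 CPM (16.6 to 33.5), 3.57 (2.79 to 4.51) and 74 (69.5 to 78.7), from 34, 71 and 1026 UMIs. On the log2 scale the ratio was -2.75 (-3.36 to -2.11) for 7 dpi over sham, 4.37 (4.02 to 4.74) for 28 over 7 dpi and 1.63 (1.13 to 2.16) for 28 dpi over sham, the last 2.23 without the top cell. MDMs of PLX5622-fed mice had 30.8, 2.86 and 7.77 CPM, from 2, 5 and 10 UMIs, so that at 28 dpi the log2 ratio to vehicle was -3.25 (-4.32 to -2.37). Thinned MDMs with a UMI made up 2.86%, 0.366% and 5.28% under vehicle, and 0 of 150 at 28 dpi under PLX5622, which allows up to 2.43%. At 28 dpi B cells had 2.5% (0.685 to 6.28), an interval that overlaps that of MDMs (4.54 to 6.1), and 32.3 CPM. Microglia had 5.25, 5.33 and 31.9 CPM, the last at the level of B cells. The part of free RNA in it was not tested. Among ranked clusters, fibroblast-like cells had the highest level in each vehicle library, at 225, 1056 and 234 CPM. However, all 44 UMIs at 7 dpi were in 1 of 20 cells and 21 of 22 at 28 dpi in 1 of 66. Without these cells the levels were 0 and 11.2 CPM, below those of MDMs, so the rank at both times rested on 1 cell. At 28 dpi fibroblast-like cells also did not stand apart from oligodendrocyte lineage cells, at 114 CPM.

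In each comparison a gene was read when both libraries together held at least 100 of its UMIs. In microglia at 7 dpi over sham, 2 of 4 genes read were at least 2-fold higher, *Timp2* and *Fn1*, and 0 lower, where over all 6623 genes read 4.02% were higher and 21.5% lower. For *Fn1*, T cells of the 7 dpi library had 186 CPM and B cells 69.5, against 174 in microglia. At 28 dpi over sham, 4 of 6 were higher in microglia, *Mmp12*, *Timp2*, *Fn1* and *Postn*, and 0 lower, beside 3.62% and 12.5% of 7162 genes, and B cells had as much of *Mmp12* and *Postn*. The median log2 ratio of all genes in these microglial comparisons was -0.54 and -0.44, which scaling by TMM or DESeq2 factors moved to between -0.01 and 0.03, so that relative to the median *Timp2* was at 1.84 and 1.60 and *Fn1* at 4.97 and 5.18.

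In MDMs at 7 dpi over sham, 1 of 8 genes read was at least 2-fold higher (*Thbs1*) and 2 lower (*Mmp2*, *Postn*), beside 4.09% and 11% of 8303 genes. Over sham at 28 dpi, 3 of 6 were higher (*Mmp12*, *Fn1*, *Postn*) and 1 lower (*Mmp2*), beside 1.53% and 5.63% of 7714 genes. From 7 to 28 dpi, 2 of 8 were higher (*Mmp12*, *Postn*) and 2 lower (*Mmp14*, *Thbs1*), beside 3.29% and 3.6% of 9140 genes. The median over all genes was -0.25 in both MDM comparisons with sham and 0.01 for 28 over 7 dpi. Under PLX5622 against vehicle at 7 dpi, 2 of 7 were higher in MDMs (*Mmp12*, which rested on 1 cell, and *Thbs1*) and 0 lower, beside 1.83% and 2.17% of 8295 genes. At 28 dpi the diet comparison gave 0 of 6 higher and 1 lower (*Postn*), beside 2.33% and 2.48% of 7635 genes. *Timp1* and *Timp3* had under 100 UMIs in each of these MDM comparisons and were not read.

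**Figure D4:**
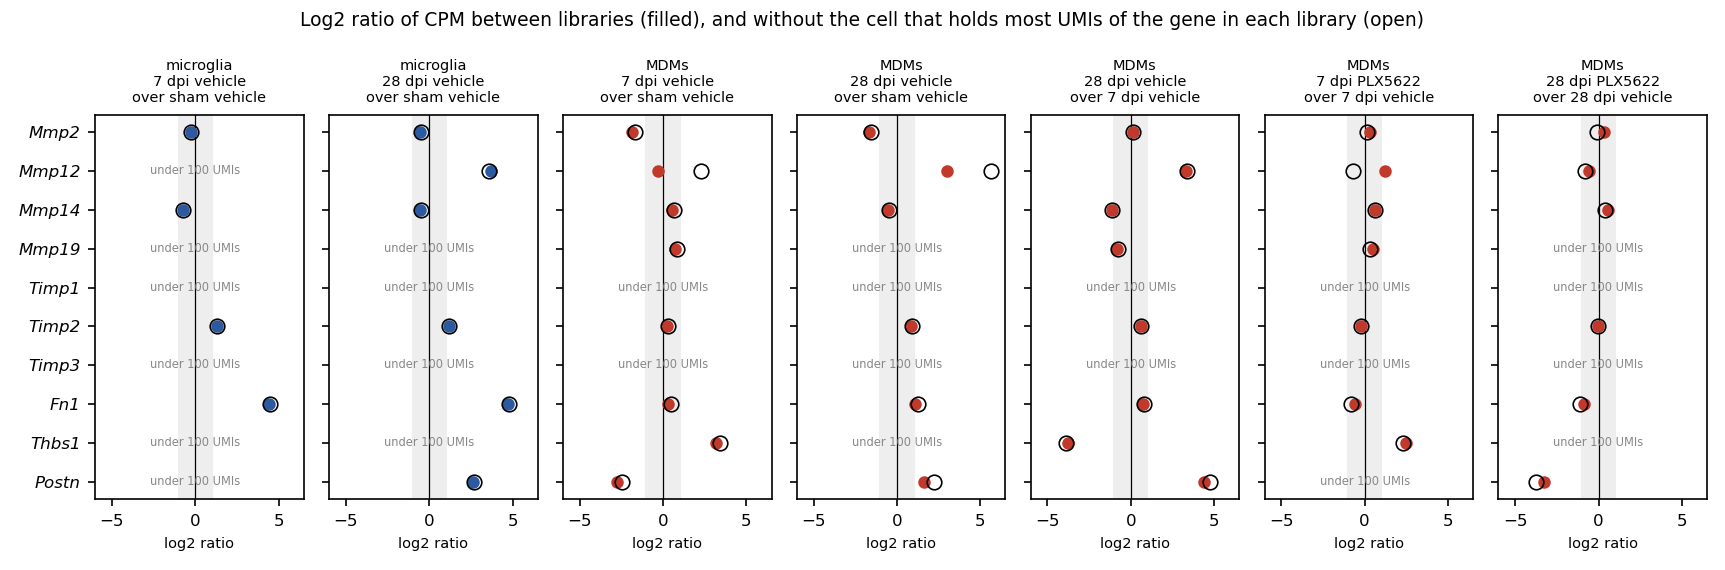
Log2 ratio of CPM (horizontal axis) of each gene in the 7 comparisons of microglia (blue) and MDMs (red), with open circles for the values without the cell that holds most UMIs of the gene in each library and grey bands for differences under 2-fold. Filled and open circles part for *Mmp12* in MDMs against sham and at 7 dpi against vehicle, where the ratio goes from 1.21 to -0.67, and lie close together for most others.

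Of related genes, 5 lists were followed in the same comparisons. Of 14 other matrix metalloproteases, 12 were detected and at most 1 could be read in a comparison, *Mmp8*, a collagenase of neutrophil granules, whose log2 ratio in MDMs was 3.27 (2.14 to 4.72) for 7 dpi over sham and -3.29 (-3.70 to -2.90) for 28 over 7 dpi. *Mmp8* is among the 10 genes of highest fold of the neutrophil cluster. Of 12 ADAM and ADAMTS proteases, 7 were read in MDMs at 7 dpi over sham, with *Adam8*, a protease of leukocytes, at 2.29 (1.80 to 2.84) and *Adamts1*, which cuts proteoglycans, at -2.52 (-2.80 to -2.23), and none of the others past 2-fold, beside 4.09% of all genes higher and 11% lower. In microglia *Adamts1* was at -1.11 (-1.32 to -0.91) at 7 dpi over sham.

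The plasminogen system is another route of matrix breakdown. Of its 10 listed genes 4 were read in MDMs. At 7 dpi over sham 3 of them were at least 2-fold lower, beside 11% of all genes, *Plaur*, the urokinase receptor, at -1.88 (-2.29 to -1.45) among them, and 3 were at least 2-fold higher for 28 over 7 dpi, beside 3.29% of all genes, with urokinase *Plau* at 1.55 (1.35 to 1.75) and *Plaur* at 1.51 (1.28 to 1.74). At 28 dpi over sham 0 of 4 passed in either direction, beside 1.53% of all genes higher and 5.63% lower. Under PLX5622 at 7 dpi *Plaur* was at 1.82 (1.42 to 2.20) over vehicle. Among 15 receptors of the 3 glycoproteins, *Itga4*, a fibronectin receptor chain, was at 2.47 (1.30 to 3.95) and 2.41 (1.25 to 3.89) in microglia at 7 and 28 dpi over sham, and *Itga9*, another chain, at -2.36 (-2.88 to -1.85) and -1.79 (-2.23 to -1.35). The *Itga4* levels were low, at 2.86, 15.8 and 15.3 CPM, and the part of free RNA in them was not tested. *Cd36*, a thrombospondin receptor, had the order of its ligand in MDMs, at 2.28 (1.82 to 2.79) for 7 dpi over sham and -3.22 (-3.44 to -3.01) for 28 over 7 dpi. It was on the marker list of MDMs but was highest in erythroid cells, at 256 CPM against 84. Of 16 other matrix glycoproteins *Ecm1* was at 1.72 (1.37 to 2.08) in MDMs at 7 dpi over sham, -2.92 (-3.10 to -2.75) for 28 over 7 dpi and 2.50 (2.20 to 2.79) for PLX5622 over vehicle at 28 dpi. *Sparc*, a collagen-binding protein, was at -1.90 (-1.96 to -1.84) in MDMs at 7 dpi over sham. MDMs of the sham vehicle cord had 1933 CPM of *Sparc* and 106 of *Adamts1*, beside 3762 and 156 in microglia of that library. The part of microglia-like cells in the sham MDM cluster was not tested.

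The genes most like each member were looked for over 75 sums of a cluster in a library, by Pearson's r of log2(CPM + 1) among 9451 genes. The sums share libraries and clusters, so r is a description. *Timp3* had the closest partners, *Fermt2* (0.95), *Npdc1* and *Prkcdbp* (0.94 each). *Mmp12* was most like *Apoc4* (0.82), *Ch25h* and *Apoc1* (0.71 each), *Fn1* like *Ecm1* (0.82), *Timp1* like *Scara3* (0.81) and *Postn* like *Dkk2* (0.79). *Mmp2* was most like *Pdgfra* (0.75), *Timp2* like *Cd9* (0.75), *Mmp19* like *Ecm1* (0.69) and *Thbs1* like *Ifitm2* (0.63). Between members the highest were *Timp2* with *Postn* (0.62), *Mmp2* with *Timp2* (0.57) and *Mmp12* with *Postn* (0.55).

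Among single MDMs of the 28 dpi vehicle cord, thinned to equal depth, 425 had an *Mmp12* UMI and 2833 had none. Per 1000 cells the first held 522 *Fn1* UMIs against 374, a log2 ratio of 0.48 (0.27 to 0.69), and 101 *Postn* UMIs against 65.7, a log2 ratio of 0.62 (0.11 to 1.11). *Timp2* was at 2129 against 2230 UMIs, a log2 ratio of -0.07 (-0.17 to 0.03), and *Mmp14* at 21.2 against 23.6. These cells come from 1 library and are no replicates. In the 28 dpi PLX5622 library the 15 MDMs with an *Mmp12* UMI had 0 *Fn1* UMIs and the other 135 had 39, so the higher *Fn1* of the vehicle library was not seen there.

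Many levels rested on few cells. Of 239 values with 20 or more UMIs of a gene in a cluster of a library, 91 had over 20% of the UMIs in 1 cell and 23 had over 50%. Where a value rested on over 1000 UMIs, as for *Timp2*, *Fn1* and *Mmp12* of MDMs in the 28 dpi vehicle library, 1 cell held at most 6.32%.

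**Figure D5:**
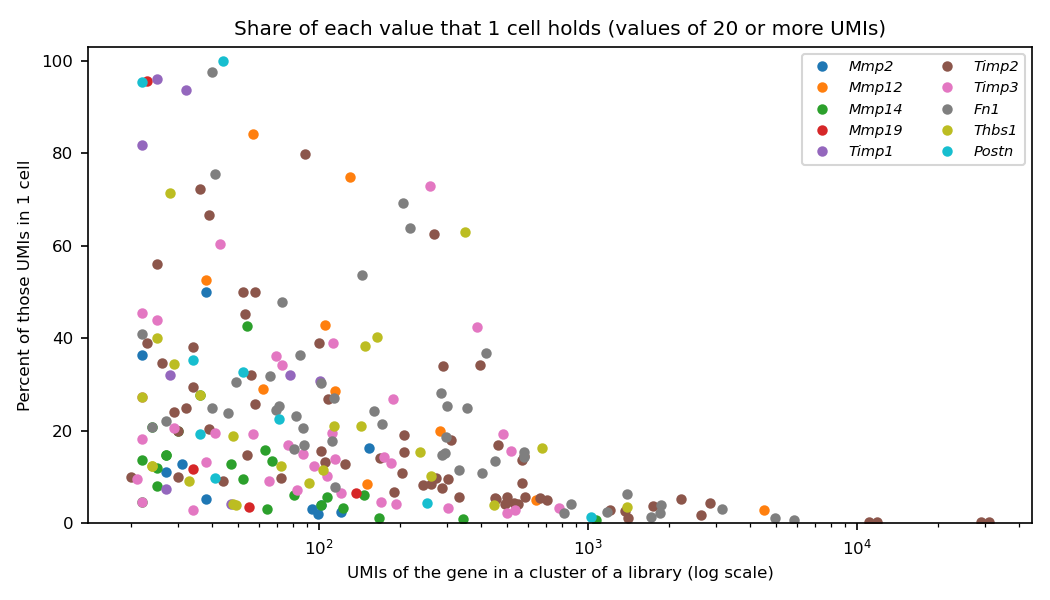
Percent of the UMIs of a gene that the richest cell holds (vertical axis) against the UMIs of the gene in a cluster of a library (horizontal axis, log scale), for the 239 values of 20 or more UMIs, coloured by gene. The high points at the left are *Timp1*, *Postn*, *Mmp19* and *Fn1* values of under 50 UMIs, and *Mmp12* of sham MDMs lies at 84.2%.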

How the data were processed

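Cells of 6 libraries of droplet single-cell RNA-seq were described; 14 bulk samples of the series were not analysed here. Per the labels and the study's methods, the authors aligned reads and counted UMIs with Cell Ranger and clustered the cells with Seurat, and the submitters' notes name the mouse builds GRCm38 and mm10. The deposited values are raw counts of UMIs per gene and cell, not normalised, with the authors' cluster numbers in a separate table. The deposited barcode files hold 21270 barcodes, and 21016 cells have counts. A removal of cells with many genes is stated, yet 716 cells of the table exceeded the stated limit, and the lowest number of genes was 199. The counts of all 10 genes were identical in the table and in the matrices of each of the 6 libraries.

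UMIs were summed per cluster and library (81305944 in all) and expressed per 1000000. Exact Poisson or binomial 95% intervals were computed, and a level of 0 was set to 3 counts for a bound. Ratios of libraries were read from 100 UMIs upward and called past 2-fold, with no test, since each condition had 1 library. Cells were thinned to 1000 UMIs for shares, and shallower cells were left out. Alternatives were TMM factors of edgeR 4.0.16, size factors of DESeq2 1.42.0, UMI minimums of 30 and 300, means over cells, thinning (also to 2000 UMIs for shares), totals without ribosomal protein genes, cells with at least 500 genes, removal of doublets called by Scrublet in scanpy 1.11.5 at 0.8% per 1000 barcodes, and, chosen after seeing the data, leaving out the cell with most UMIs and barcodes shared by libraries. Doublets stayed in otherwise. Each ratio step was tested on simulated data. Promoter windows came from RefSeq and transcript starts from GENCODE. Figures were drawn with matplotlib 3.10.9. Other steps used R 4.3.3 and Python 3.11.15 with pandas 2.3.3, numpy 2.4.6 and scipy 1.17.1. 0 columns of samples were left unmatched.

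The 10 genes, the lists and the markers were chosen with earlier results of these data known. All 10 genes were named, with up to 2 genes of each list at either end of a comparison and up to 3 genes most like each member by r; that result for Mmp14 is not reported here. Levels outside the myeloid clusters were also read in cells with fewer than 3 UMIs of the 12 myeloid genes. This cut is a fixed count, so it keeps shallow cells more often than deep ones. The kept cells were not matched for depth, and what depth adds to these levels was not tested. These 12 genes, the cell type markers and the 5 lists of related genes were read once each, and Mmp8 and Mmp12 also lead a cluster.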

Additional observations from a re-analysis of the deposited data

Results flagged for a closer look

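The log2 ratio of *Mmp14* for 7 dpi over sham in vehicle cords was -0.75 in microglia and 0.56 in MDMs, so the same contrast had opposite signs in these clusters. The microglial level at 7 dpi, 18.2 CPM, lay below those of T cells (27) and B cells (24.2) of that library. With 1 library per condition the difference was not tested. The median over all genes was -0.54 in microglia and -0.25 in MDMs, and with TMM factors the *Mmp14* values were -0.20 and 0.86.

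For *Mmp12* the log2 ratio of PLX5622 over vehicle in MDMs was 1.21 at 7 dpi and -0.57 at 28 dpi. This difference was not tested either, and the 7 dpi value rested on 1 cell with 98 of 131 UMIs.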

How the results depend on the processing

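Each count of genes past 2-fold was recomputed under every alternative, and 143 of 154 recomputed counts stayed within 1.5 times the value given, 11 did not. With a minimum of 300 UMIs, 2 genes were higher in microglia at 28 dpi over sham (*Mmp12* and *Postn* were not read), and 0 were lower in MDMs over sham at 7 dpi and at 28 dpi. With a minimum of 30 UMIs, 1 gene was lower in microglia at 28 dpi over sham (*Timp3*) and 1 higher in MDMs under PLX5622 at 28 dpi (*Thbs1*). In MDMs at 7 dpi over sham, 2 genes were higher with TMM factors (*Mmp19* added), with the mean over cells (*Mmp14* added) and without the top cell (*Mmp12* added). For PLX5622 over vehicle in MDMs, 1 gene was higher at 7 dpi with the mean over cells and without the top cell, *Mmp12* being lost, and 2 in thinned cells, *Mmp12* being lost and *Mmp2* gained. Also in MDMs under PLX5622, 2 were lower at 28 dpi without the top cell (*Fn1* added). The log2 ratio of *Mmp12* under PLX5622 at 7 dpi reversed to -0.67 without the top cell and to -0.03, a bound from 0 UMIs, in thinned cells. Of 403 recomputed log2 ratios, 63 moved by more than their counting interval, 2 reversed and 338 did neither. *Timp2* was lost in microglia at 28 dpi over sham with the mean over cells (0.97), and gained in MDMs with TMM and DESeq2 factors (1.14 and 1.12). Leaving out shared barcodes moved none. Of the levels, 59 of 143 recomputed values moved, of the shares of a library's UMIs 25 of 30 with equal cell numbers, and of the shares of cells 45 of 60 without thinning or at 2000 UMIs. The alternatives without the top cell and without shared barcodes were chosen after seeing the data. The cause of these differences was not tested.

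No paired analysis was possible because each condition had 1 library. Several mice were pooled in each library, so spread between mice is not seen, and depth limits *Mmp19*, *Timp1* and *Mmp2* most, as do clusters of under 100 cells.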
